A study of Mus musculus with 8 samples.

Results

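The expression of 10 genes of de novo lipogenesis was followed in the livers: Srebf1, Acly, Acaca, Acacb, Fasn, Scd1, Elovl6, Elovl5, Me1 and Thrsp. They were taken by symbol from the 25239 gene symbols that the count lists hold, and all 10 were found. De novo lipogenesis turns surplus carbohydrate into fatty acids in the cytosol of hepatocytes. Citrate that leaves mitochondria is cleaved to acetyl-CoA, acetyl-CoA is carboxylated to malonyl-CoA, and fatty acid synthase joins these units at the expense of NADPH. The product is then elongated and desaturated. Insulin drives most of these genes through SREBP-1c, a transcription factor made as a precursor in the membrane of the endoplasmic reticulum, and glucose drives many of them through ChREBP. The pathway is well known for its higher activity in steatotic liver.

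Bulk RNA-Seq was performed on the livers of 8 adult male mice with both Smo alleles floxed (Smo tm2Amc /J, Smo fl/fl), on a C57Bl6/J background. All were fed the CDA-HFD, a choline-deficient diet with a defined amino acid mixture and most of its energy from fat, for 6 weeks, and all received a vector of adeno-associated virus serotype 8 by tail vein 1 week before sacrifice. In 4 control mice the vector was AAV8-TBG-Luciferase and in 4 Smo-KO mice it was AAV8-TBG-Cre Recombinase. The TBG promoter is active in hepatocytes, so other liver cells of the Smo-KO mice keep Smo, and the controls carry the same floxed alleles, diet and serotype. Whether the number of a mouse marks a shared cage or day is not given in the sources used here, nor is the feeding state at sacrifice. The livers had 8203299 to 9999732 reads on genes each. The labels give the control mice the genotype WT. The age of these mice is not given in the sources used here. Smo, the targeted gene, averaged 8.40 ± 0.270 CPM (reads scaled to library size with TMM factors; mean ± SD, n = 4) in control and 4.56 ± 0.765 CPM in Smo-KO livers, and the groups did not overlap. Alb, the most abundant of 8 hepatocyte markers, averaged 15954 CPM over the 8 livers, and the summed level of these markers was 27205 ± 2247 CPM in control and 26047 ± 822 CPM in Smo-KO livers (two-sided exact permutation p = 0.457). That sum is mostly Alb, and 1 of the 8 markers was lower at an unadjusted p under 0.05, where 7.15% of all genes tested were. It was Cps1, of the urea cycle, which went from 919 ± 50.6 to 733 ± 93.97 CPM without overlap (log2 fold change -0.33, standard error 0.10). Tat, which degrades tyrosine, was at 981 ± 243 and 637 ± 303 CPM with overlap, and its log2 fold change went from -0.62 to -0.35 without Smo-KO mouse 3, the lowest liver at 243 CPM. In all, 5 of the 8 markers had lower and 3 had higher estimates, the latter Apoa1 (0.18), Serpina1a (0.21) and Asgr1 (0.17) on the log2 scale. The part of these differences in the lipogenic genes was not tested.

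Promoter windows of the members, from 250 bases before to 50 bases after an annotated start (RefSeq, GRCm38.p6), were available for 9 of the 10 genes, 12 windows in all. Those of the 3 members with the lowest p-values between groups, Acly, Fasn and Elovl5, are printed together with 1 of the 3 windows of Srebf1, because these are the genes on which the comparison turns. Capitals mark every match, on either strand, to TCACCC, the short form of the sterol response element that SREBP proteins recognize, to the E box CACGTG, to the CCAAT box CCAAT and to the GC box GGGCGG. The longer SRE form TCACNCCAC was also searched.
Srebf1 (chr11:60210422-60210721, minus strand): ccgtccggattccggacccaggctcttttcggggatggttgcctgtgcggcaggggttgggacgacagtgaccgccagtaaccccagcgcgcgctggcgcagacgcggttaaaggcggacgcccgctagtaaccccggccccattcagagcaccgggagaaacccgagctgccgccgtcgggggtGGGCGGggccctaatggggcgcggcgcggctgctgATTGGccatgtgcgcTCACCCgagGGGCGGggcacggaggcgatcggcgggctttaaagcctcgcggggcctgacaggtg
Acly (chr11:100527951-100528250, minus strand): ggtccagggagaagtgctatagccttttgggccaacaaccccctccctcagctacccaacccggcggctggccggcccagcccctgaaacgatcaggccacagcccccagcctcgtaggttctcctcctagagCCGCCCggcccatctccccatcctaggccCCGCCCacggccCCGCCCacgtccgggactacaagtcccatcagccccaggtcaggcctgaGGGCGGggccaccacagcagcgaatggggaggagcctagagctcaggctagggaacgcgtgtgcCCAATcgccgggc
Fasn (chr11:120824498-120824797, minus strand): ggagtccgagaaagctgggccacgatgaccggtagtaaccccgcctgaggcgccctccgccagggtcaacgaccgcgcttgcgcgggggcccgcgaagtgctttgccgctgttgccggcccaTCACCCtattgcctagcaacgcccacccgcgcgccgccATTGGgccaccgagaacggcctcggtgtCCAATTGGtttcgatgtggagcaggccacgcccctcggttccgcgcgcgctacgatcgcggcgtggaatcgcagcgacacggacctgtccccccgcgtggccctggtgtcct
Elovl5 (chr9:77917115-77917414, plus strand): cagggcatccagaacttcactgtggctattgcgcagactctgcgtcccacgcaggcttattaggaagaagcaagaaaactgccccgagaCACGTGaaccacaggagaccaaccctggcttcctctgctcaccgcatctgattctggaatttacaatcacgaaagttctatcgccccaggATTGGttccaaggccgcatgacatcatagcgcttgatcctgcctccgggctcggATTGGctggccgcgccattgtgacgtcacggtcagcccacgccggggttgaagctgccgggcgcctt
None of the 12 windows held TCACNCCAC, which 1.24% of all 32851 windows of the same length hold. TCACCC was present in 3 of the 12 windows (Srebf1, Fasn and Me1), against 16.2% of all windows. CACGTG was present in 1 window (Elovl5), against 7.15%, CCAAT in 8 windows, against 37.4%, and GGGCGG in 4, against 35.7%. In the window of Srebf1 a CCAAT box, TCACCC and a GC box lie within a few bases of each other just before the start, with first bases at positions -30, -15 and -6 from it. In the window of Fasn TCACCC begins at position -128, and the capitals CCAATTGG hold 2 overlapping CCAAT boxes, 1 on each strand. These matches are descriptions of sequence. No binding was measured here.

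The 10 genes were expressed at levels that differed by about 2 orders of magnitude. Per kilobase of exon, the scale on which genes can be compared, Elovl5 was highest in control livers at 108 ± 20.6 CPM per kilobase (SD, n = 4). Srebf1 (29.4 ± 6.06), Fasn (23.2 ± 3.95), Me1 (21.7 ± 2.99) and Acly (21.2 ± 1.44) followed, and the control ranges of neighbours in this order overlapped. Scd1 (9.83 ± 3.10), Thrsp (6.75 ± 4.12) and Elovl6 (4.52 ± 0.379) came next, again with overlapping neighbours, then Acaca at 2.83 ± 0.172 and Acacb, the lowest, at 1.11 ± 0.123 CPM per kilobase. Elovl5, Acly, Elovl6 and Acaca each lay above the next gene of this order in every control liver. With the longest transcript in place of all exons, Acaca came to 5.08 and Elovl6 to 4.88 CPM per kilobase, so their order is set by the annotation.

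**Figure D1:**
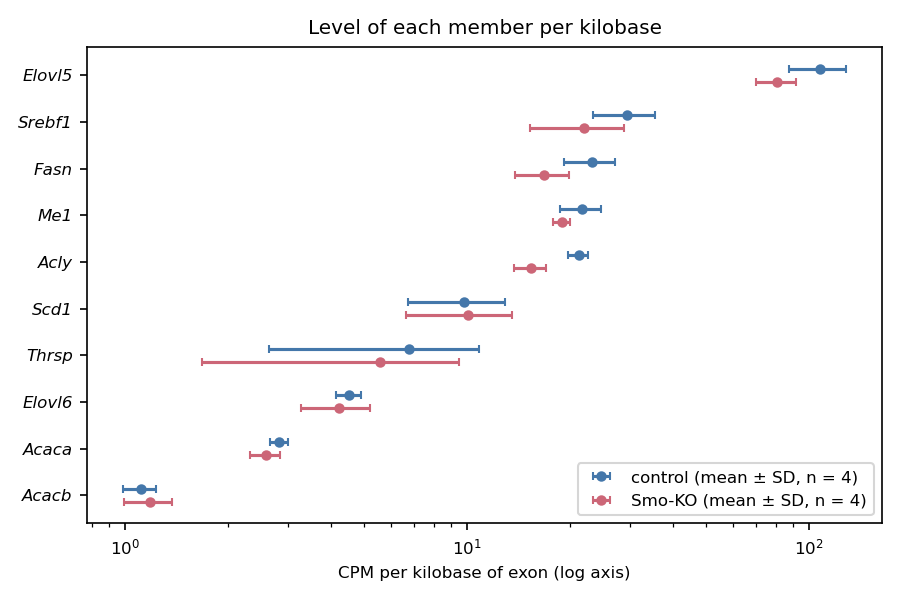
Level of the 10 members in CPM per kilobase of exon (x axis, logarithmic) in control and Smo-KO livers, with points for means and bars for SD (n = 4 each). Elovl5 stands highest and Acacb lowest in both groups, and the bars of most genes overlap between groups.

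Between the groups, 8 of the 10 members had a lower and 2 a higher estimated level in Smo-KO livers, against 50.1% of all 12977 genes tested with a lower estimate. The median log2 fold change of the members was -0.23, and that of all genes tested was -0.000845. With edgeR's quasi-likelihood model, 0 members reached an adjusted p of 0.05, and neither did any other gene (0% of genes tested). At an unadjusted p under 0.05, 3 members were lower (Acly, Fasn and Elovl5), against 7.15% of all genes tested, and 0 were higher, against 6.7%. In 2 members, Acly and Fasn, every Smo-KO liver lay below every control liver, against 4.34% of all genes tested. In 0 members did every Smo-KO liver lie above every control, against 3.03%. By DESeq2's Wald test 1 member, Acly, was lower at an adjusted p under 0.05, against 0.655% of genes tested, and 0 were higher, against 0.632%. The reads came from whole liver, so fewer cells of a type and less RNA per cell cannot be told apart.

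**Figure D2:**
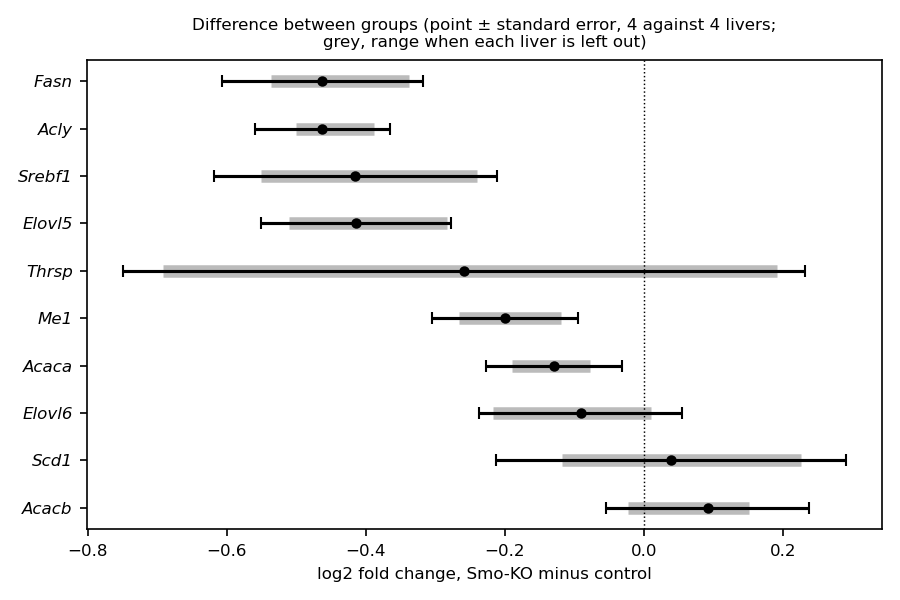
Log2 fold change of each member, Smo-KO minus control (x axis), from edgeR's fit of 4 against 4 livers; points with bars are the estimate ± standard error and grey bands the range when each liver was left out in turn. Acly, Fasn, Elovl5, Srebf1, Acaca and Me1 stay below 0 across their bands, while the bands of Acacb, Scd1, Elovl6 and Thrsp cross 0.

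Acly (GRCm38, chr11:100476353-100528000, minus strand) encodes ATP citrate lyase, which cleaves cytosolic citrate to acetyl-CoA and so opens the pathway. It was at 113, 113, 120 and 102 CPM in control mice 1 to 4 and at 84.4, 86.5, 68.3 and 85.7 CPM in Smo-KO mice 1 to 4. All Smo-KO livers were below all controls, and 3 of them lay close together with mouse 3 lower still. The mean went from 112 ± 7.59 to 81.2 ± 8.67 CPM (SD, n = 4 each), which is 72.5% of the control level. The log2 fold change came to -0.46 (SE, the standard error, 0.10), and the exact permutation p was 0.0286 (two-sided), the smallest that 4 against 4 livers allow. Over all genes tested, edgeR's adjusted p was 0.116 and that of DESeq2 0.00917. The log2 fold change stayed between -0.50 and -0.39 with each liver left out.

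Fasn (chr11:120805846-120824547, minus strand) encodes fatty acid synthase, the multienzyme that builds palmitate. Its values were 318, 245, 227 and 227 CPM in control and 199, 212, 136 and 190 CPM in Smo-KO livers. All Smo-KO livers were below all controls, with the highest value of all in control mouse 1 and the lowest in Smo-KO mouse 3. The means were 254 ± 43.2 and 184 ± 33.5 CPM, or 72.5% of control, with a log2 fold change of -0.46 (SE 0.14) and a two-sided exact permutation p of 0.0286. Adjusted over all genes, p was 0.215 by edgeR and 0.107 by DESeq2.

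Elovl5 (chr9:77917364-77984519, plus strand) elongates mainly polyunsaturated fatty acids, and the levels of its transcript were 301, 366, 476 and 376 CPM in control and 300, 269, 240 and 330 CPM in Smo-KO livers. The groups overlapped, since control mouse 1 was below Smo-KO mouse 4 and close to Smo-KO mouse 1. Smo-KO livers were lower by a log2 fold change of -0.41 (SE 0.14), with a two-sided exact permutation p of 0.0571 and edgeR's adjusted p at 0.235. Elovl6 (chr3:129532355-129638495, plus strand) elongates palmitate to stearate, and it was at 29.9, 28.6, 31.7 and 25.9 CPM in control and 22.9, 34.1, 21.1 and 30.8 CPM in Smo-KO livers. Its Smo-KO livers lay both above and below the controls (log2 fold change -0.09, SE 0.15), with an SD of 6.25 CPM against 2.44 CPM.

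Srebf1 (chr11:60199089-60222581, minus strand) encodes the SREBP-1 precursor, and its 2 main forms, which differ in their first exon, are summed in these counts. It was at 211, 128, 163 and 161 CPM in control and 151, 112, 75.6 and 158 CPM in Smo-KO livers. Smo-KO mice 1 and 4 lay within the control range and mice 2 and 3 below it. Its log2 fold change of -0.42 was near that of Elovl5 but its SE was wider (0.20). In edgeR's test p was 0.0627 unadjusted and 0.388 adjusted, and the exact permutation p was 0.143 (two-sided). It ran from -0.55 to -0.24 with each liver left out, the latter without Smo-KO mouse 3.

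Acetyl-CoA carboxylase makes malonyl-CoA and is encoded by 2 paralogs, between which reads on shared stretches could have been split. Acaca (chr11:84129672-84401651, plus strand), the cytosolic form that feeds synthesis, was at 50.7, 44.9, 50.8 and 46.8 CPM in control and 46.0, 41.8, 39.1 and 49.5 CPM in Smo-KO livers. The ranges overlapped, and the log2 fold change was -0.13 (SE 0.10), or -0.078 without Smo-KO mouse 3. Acacb (chr5:114146535-114250761, plus strand), the mitochondrial form whose malonyl-CoA restrains the entry of fatty acids into mitochondria, was at 11.5, 9.33, 11.9 and 10.2 CPM in control and 14.1, 10.3, 10.5 and 10.8 CPM in Smo-KO livers. Only Smo-KO mouse 1 was above the controls, and the log2 fold change of 0.09 (SE 0.15) went to -0.02 without it.

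Me1 (chr9:86581371-86695953, minus strand) encodes the cytosolic malic enzyme, a source of NADPH. Its levels were 71.8, 76.3, 96.5 and 89.9 CPM in control and 69.4, 74.7, 69.4 and 77.8 CPM in Smo-KO livers. Smo-KO mice 1 and 3 were below all controls, and the other two sat at the low end of the control range (log2 fold change -0.20, SE 0.10, unadjusted p = 0.0794 in edgeR's test). Without control mouse 3 the log2 fold change was -0.12, and without control mouse 1 it was -0.27, past an unadjusted 0.05 in edgeR's test. Me1, Srebf1 and Elovl6 share exon bases with a gene on the opposite strand (GENCODE M21). Since the strand setting of the counting is not given, reads of such partners cannot be told apart where the exons meet. Srebf1 also shares exon bases with a gene on its own strand, from which no strand setting separates its reads.

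Scd1 (chr19:44394455-44407879, minus strand), the desaturase that makes oleate, and Thrsp (chr7:97412938-97417730, minus strand), a small nuclear and cytosolic protein that promotes lipogenesis, differed more between mice than between groups. Scd1 was at 32.2, 57.5, 38.5 and 64.2 CPM in control and 43.0, 64.8, 28.5 and 61.2 CPM in Smo-KO livers. Mice 2 and 4 of both groups were thus higher than mice 1 and 3 of both groups, and the log2 fold change between groups was 0.04 (SE 0.25). Thrsp was at 26.9, 11.8, 5.37 and 15.0 CPM in control and 6.08, 21.8, 4.02 and 17.0 CPM in Smo-KO livers, from 33 to 237 reads. Its coefficient of variation was 61.0% in control and 69.97% in Smo-KO livers, the highest of the 10 genes in each group, and the log2 fold change of -0.26 had an SE of 0.49. Reads on the paralogs of Scd1 were few for Scd3 and Scd4, at most 1 and 2 per liver, while Scd2 averaged 20.4 ± 1.23 CPM in control and 17.0 ± 2.88 CPM in Smo-KO livers.

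**Figure D3:**
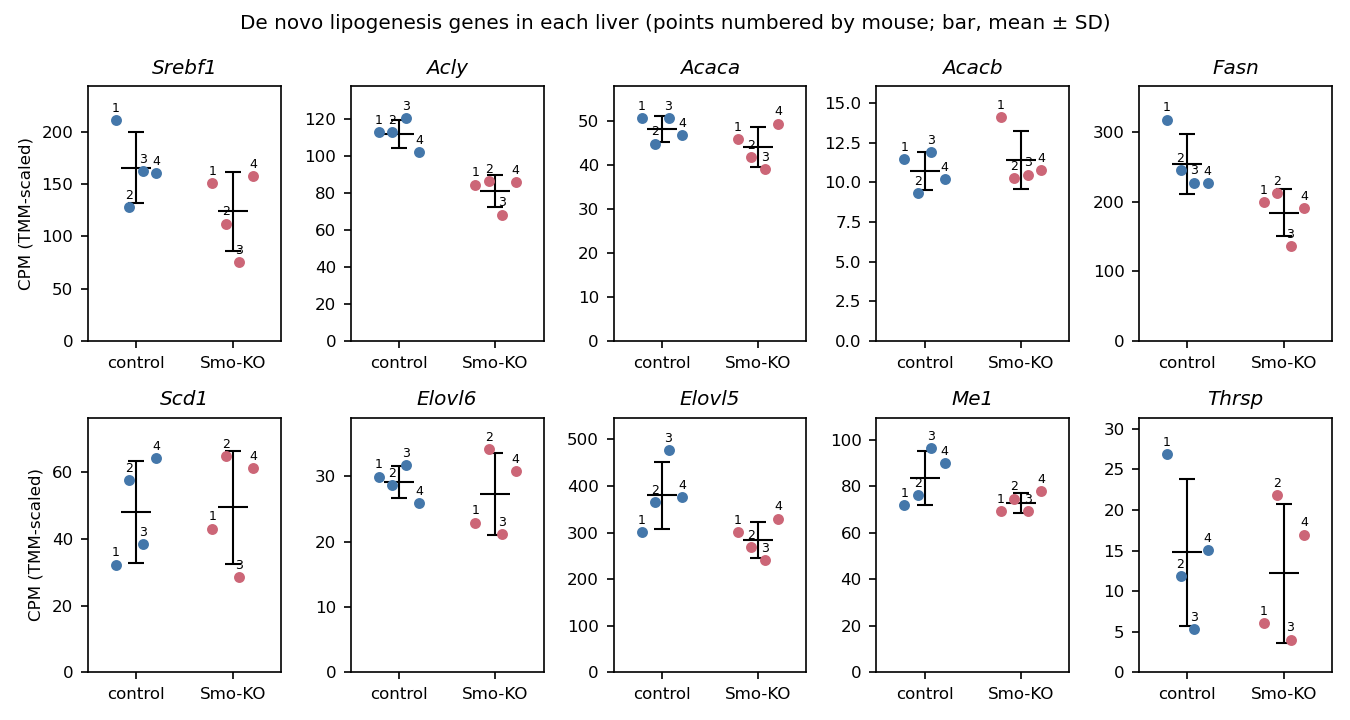
CPM of each member (y axis, from 0) in the 4 control and the 4 Smo-KO livers; points carry the number of the mouse and bars give the mean ± SD (n = 4). Acly and Fasn separate the groups, and Scd1 and Thrsp spread as widely within a group as across both.

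The lower levels were not evenly spread over the Smo-KO mice. Smo-KO mouse 3 had the lowest value of all 8 livers in 8 of the 10 members, with a median log2 difference of -0.67 from the control mean. For Smo-KO mice 1, 2 and 4 this median was -0.29, -0.18 and -0.019. Mouse 3 also had the fewest reads on genes (8203299), and the part of depth in its values was not tested. Without it, the same number of members, 3, was lower at an unadjusted p under 0.05, while the median log2 fold change of the 10 genes went from -0.23 to -0.13. The summed level of the 10 genes was 1146 ± 61.0 CPM in control and 892 ± 138 CPM in Smo-KO livers, 77.8% of control, a sum in which Elovl5, Fasn and Srebf1 weigh most.

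**Figure D4:**
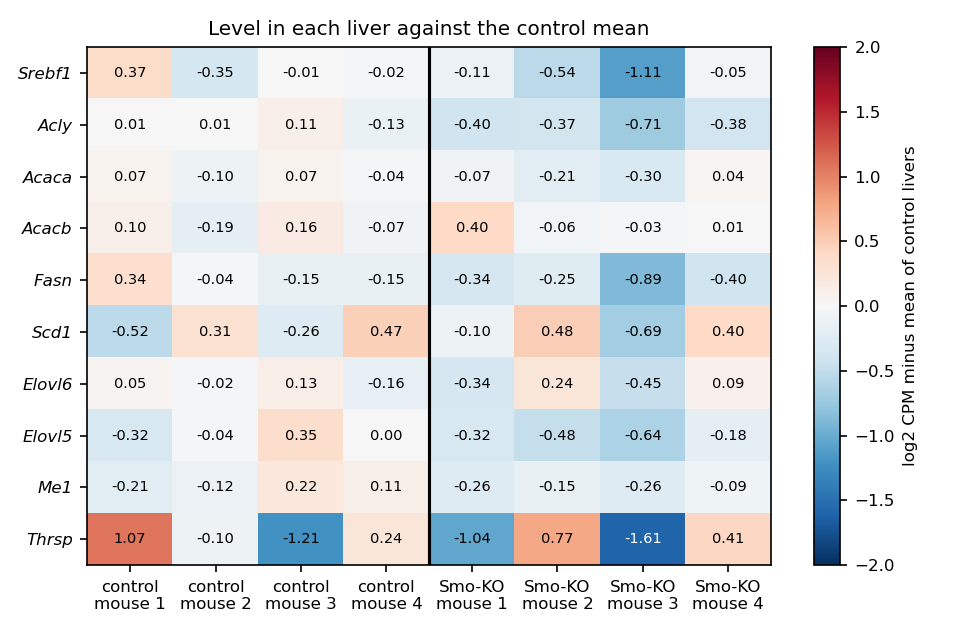
Log2 CPM of each member (rows) in each liver (columns) minus the mean of the 4 control livers, given in the cells and by colour. Smo-KO mouse 3 is below the control mean in every row, and the row of Thrsp runs from -1.61 to 1.07.

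Srebf1 was set against the other 9 members between livers, after the mean of each group had been subtracted from log2 CPM. The closest relation was with Acaca (Pearson's r = 0.91, exact permutation p = 0.0104; Spearman's rho = 0.93, exact permutation p = 0.0104; n = 8 livers in 2 groups, permuted within groups). Without the 2 livers farthest from the median of Srebf1, Smo-KO mice 3 and 4, r with Acaca was 0.83. Fasn followed by r, at 0.75 (exact permutation p = 0.0677), with rho = 0.55 (exact permutation p = 0.219) and r = 0.55 without the same livers. By rho Acacb came after Acaca, at 0.62 (exact permutation p = 0.149). Its r was 0.58, or 0.81 without those livers. Me1 (r = 0.05) and Scd1 (r = 0.19) were at the other end. Without Smo-KO mice 3 and 4, r went from 0.64 to 0.08 for Acly and from 0.49 to 0.07 for Thrsp. It was then below 0 for Scd1 (-0.72), Elovl6 (-0.30), Me1 (-0.30) and Elovl5 (-0.25). Adjusted over the 9 relations none passed 0.05, with the lowest at 0.0938 for Acaca and the next at 0.305 for Fasn. Groups of 4 are too small for a relation within each.

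The genes around the pathway were described by 7 further lists. Of 16 genes that supply acetyl-CoA and NADPH, 14 had lower estimates in Smo-KO livers, with a median log2 fold change of -0.16, and 6 were lower and 0 higher at an unadjusted p under 0.05. Of all genes tested 50.1% had lower estimates, and 7.15% were lower and 6.7% higher at that threshold. None of the genes in the 7 lists reached an adjusted p of 0.05 by edgeR. Mdh1, the cytosolic malate dehydrogenase, went from 529 ± 22.2 to 441 ± 40.1 CPM (log2 fold change -0.26, SE 0.09). Pdhb, a subunit of pyruvate dehydrogenase, went from 112 ± 3.64 to 95.1 ± 6.91 CPM (-0.24, SE 0.08), and G6pdx, which opens the pentose phosphate pathway, from 25.1 ± 2.01 to 20.04 ± 2.98 CPM (-0.32, SE 0.12). The call of G6pdx, its unadjusted p under 0.05, ended without Smo-KO mouse 2 or control mouse 4. For Pdha1, Cs and Tkt, the other lower genes of the list, 6 of the 8 livers, left out singly, ended the call. Only the calls of Mdh1 and Pdhb held with each liver left out. In Mdh1, Pdhb and G6pdx every Smo-KO liver lay below every control. This held for 4 genes of the list, against 4.34% of all genes tested. The members of this list differ in compartment: Pdhb and Cs work in mitochondria and also serve energy production.

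Other elongases, desaturases and enzymes of the elongation cycle did not lean to 1 side. Of 16 genes 13 passed the filter on low counts, 5 were lower and 8 higher in estimate, against 50.1% of all genes with lower estimates, and 1 in each direction had an unadjusted p under 0.05 (7.15% of all genes tested lower, 6.7% higher). Elovl2, an elongase of polyunsaturated fatty acids, was at 305 ± 38.2 CPM in control and 251 ± 26.6 CPM in Smo-KO livers (log2 fold change -0.28, SE 0.11). Hacd3, a dehydratase of the elongation cycle, was at 238 ± 20.9 and 288 ± 47.5 CPM (0.28, SE 0.12), and Scd2 had a log2 fold change of -0.26 (SE 0.13). The calls of Elovl2 and Hacd3 ended without Smo-KO mouse 3, among other livers left out singly. Among 9 regulators of acetyl-CoA carboxylase and malonyl-CoA the median log2 fold change was 0.0036, and 1 gene, Mid1ip1, was lower at an unadjusted p under 0.05, a share near the 7.15% of all genes tested. Mid1ip1, the paralog of Thrsp, was at 54.1, 44.4, 37.2 and 46.2 CPM in control and 43.1, 33.5, 24.3 and 39.8 CPM in Smo-KO livers, with a log2 fold change of -0.37 (SE 0.16). It went to -0.23 without Smo-KO mouse 3, and 5 of the 8 livers, left out singly, ended its call. Prkag2 and Prkab1, subunits of AMP-activated kinase, had log2 fold changes of 0.13 and -0.11.

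Among 11 genes of SREBP processing, 3 were lower and 0 higher at an unadjusted p under 0.05 (7.15% and 6.7% of all genes tested), and the median log2 fold change was -0.13. The 3 were Insig1 and Insig2, which hold the complex of SCAP and SREBP in the endoplasmic reticulum, and Srebf2, which encodes SREBP-2. Insig1, itself a target of SREBP, was at 251, 185, 157 and 207 CPM in control and 156, 136, 77.3 and 156 CPM in Smo-KO livers, a log2 fold change of -0.60 (SE 0.20, edgeR's adjusted p 0.231). No Smo-KO liver reached the lowest control, although control mouse 3 and Smo-KO mice 1 and 4 were about level. Insig2 was at 241, 398, 395 and 266 CPM in control and 239, 257, 148 and 213 CPM in Smo-KO livers (log2 fold change -0.60, SE 0.19). Its groups overlapped through control mouse 1. Srebf2 went from 90.0 ± 10.2 to 74.0 ± 9.39 CPM (log2 fold change -0.28), a call that ended without Smo-KO mouse 3, Smo-KO mouse 4 or control mouse 1, while Scap was at 119 ± 5.71 and 127 ± 9.67 CPM.

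Of 13 transcription factors of lipogenic genes, 1 was higher and 0 lower at an unadjusted p under 0.05 (6.7% and 7.15% of all genes tested), with a median log2 fold change of 0.0088. It was Mlxipl, which encodes ChREBP. Mlxipl was at 206, 183, 105 and 141 CPM in control and 238, 233, 235 and 245 CPM in Smo-KO livers. All Smo-KO livers were above all controls and lay close together (SD 5.31 CPM against 44.6 CPM), and Smo-KO mouse 3 was not apart from the others here. Its log2 fold change was 0.58 (SE 0.16), and p adjusted over all genes was 0.175 by edgeR and 0.0387 by DESeq2. Mlx, the partner of ChREBP, was at -0.18, Nfya, a subunit of the CCAAT-binding factor, at -0.15, and Nr1h3, which encodes LXR alpha and activates Srebf1, at 0.05 (log2 fold changes).

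Targets of SREBP-1c, LXR and ChREBP outside the 10 genes went both ways, with 2 of 12 lower and 2 higher at an unadjusted p under 0.05 (7.15% and 6.7% of all genes tested) and a median log2 fold change of 0.06. Txnip, a target of ChREBP, was at 115, 86.7, 81.6 and 102 CPM in control and 162, 207, 217 and 154 CPM in Smo-KO livers. All Smo-KO livers were above all controls (log2 fold change 0.94, SE 0.14), and p adjusted over all genes was 0.0785 by edgeR and 7.49e-07 by DESeq2. Pnpla3, a lipid droplet protein and target of SREBP-1c, was at 2.15, 2.73, 2.19 and 2.57 CPM in control and 0.93, 1.31, 1.22 and 0.75 CPM in Smo-KO livers, from 19 to 26 and from 7 to 12 reads. Its groups did not overlap (log2 fold change -1.20, SE 0.26, edgeR's adjusted p 0.126), and its level was low in both. Aacs, which activates acetoacetate for lipid synthesis in the cytosol, was at 44.7 ± 10.5 CPM in control and 72.8 ± 19.97 CPM in Smo-KO livers (log2 fold change 0.70, SE 0.19), with overlap through control mouse 1, and p adjusted over all genes was 0.172 by edgeR and 0.0345 by DESeq2. Gpam, which starts triglyceride assembly, was the other lower gene (log2 fold change -0.19, or -0.13 without Smo-KO mouse 3), and 6 of the 8 livers, left out singly, ended its call. Of the 22 genes called at an unadjusted p under 0.05 in the 7 lists, 11 were called with each liver left out.

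**Figure D5:**
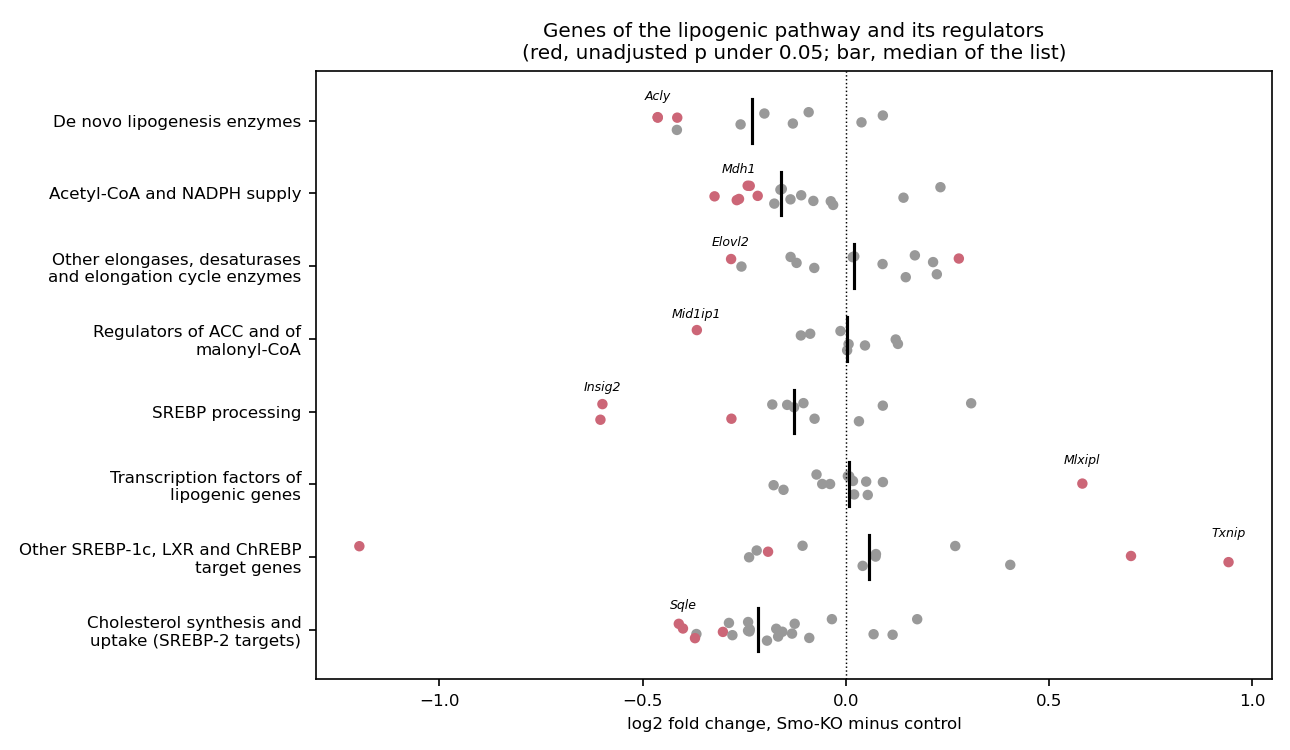
Log2 fold change, Smo-KO minus control (x axis), of the genes tested in each list (rows); red points have an unadjusted p under 0.05 in edgeR's test, black bars are list medians, and the gene of each list with the lowest p is named. The members and the supply, SREBP processing and cholesterol genes have their medians below 0, and Mlxipl and Txnip lie far to the right.

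The 22 genes of cholesterol synthesis and uptake, which SREBP-2 drives, had a median log2 fold change of -0.21, close to that of the 10 lipogenic genes, with 19 lower and 3 higher in estimate. At an unadjusted p under 0.05, 4 were lower and 0 higher. Over all genes tested 50.1% had lower estimates, and 7.15% were lower and 6.7% higher at that threshold. Sqle, the squalene epoxidase, was at 109.6, 99.5, 117 and 111 CPM in control and 92.0, 86.3, 72.8 and 80.6 CPM in Smo-KO livers. Its groups did not overlap (log2 fold change -0.40, SE 0.09), and p adjusted over all genes was 0.14 by edgeR and 0.0284 by DESeq2. Sc5d, which acts late in cholesterol synthesis, was at -0.37 (SE 0.14) on the log2 scale, or -0.24 without Smo-KO mouse 3. Its groups overlapped, and its call ended without Smo-KO mouse 3, control mouse 1 or control mouse 3. Dhcr7, also among the lower genes, lost its call without Smo-KO mouse 3 or control mouse 1.

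Markers of other cells were measured beside these genes. Of 8 adipocyte markers, cells that also run lipogenesis, Lep had 0 reads, and Adipoq, Plin1, Cfd and Retn had at most 1 read in any liver. The summed level of this list was 15.4, 14.7, 15.0 and 16.02 CPM in control and 21.5, 19.0, 16.6 and 26.9 CPM in Smo-KO livers, with Fabp4 its most abundant gene. The sum was higher in Smo-KO livers without overlap (exact permutation test, two-sided p = 0.0286), with the lowest of them in mouse 3. Neither of the 2 genes that make up most of it separated the groups alone: Adrb3, a beta-adrenergic receptor, was at 4.69 ± 2.10 and 7.99 ± 1.88 CPM (log2 fold change 0.78, SE 0.29, or 0.56 without control mouse 3), and Fabp4 at 10.3 ± 2.27 and 12.7 ± 3.22 CPM. The part of this sum in the lipogenic genes was not tested. Of 8 lymphocyte markers 7 are in the lists and 5 passed the filter, and all 5 were lower at an unadjusted p under 0.05, against 7.15% of all genes tested. Their sum was 50.9, 54.5, 44.1 and 60.3 CPM in control and 23.6, 20.2, 33.3 and 34.3 CPM in Smo-KO livers (exact permutation test, two-sided p = 0.0286), with Nkg7 the most abundant at 11.03 CPM and none at 0 in all livers. This list moved with the group, and its part in the lipogenic genes was not tested. The sums of macrophage (1758 ± 230 and 1830 ± 232 CPM), stellate cell and fibroblast (900 ± 45.9 and 788 ± 125 CPM), endothelial (212 ± 22.7 and 176 ± 57.4 CPM), cholangiocyte (237 ± 46.1 and 284 ± 40.2 CPM) and skeletal muscle markers (3.33 ± 1.40 and 2.94 ± 0.762 CPM) overlapped between groups. Within the macrophage list 2 of 8 genes were higher in every Smo-KO liver than in any control, against 3.03% of all genes tested, while 4 of the 8 had lower estimates, none of them called. Trem2, a receptor of lipid-associated macrophages, was at 29.8, 36.2, 32.8 and 35.7 CPM in control and 43.9, 54.6, 66.5 and 61.1 CPM in Smo-KO livers (log2 fold change 0.75, SE 0.13), and p adjusted over all genes was 0.0957 by edgeR and 0.000169 by DESeq2. Lyz2, a lysozyme of myeloid cells, went from 412 ± 37.9 to 513 ± 48.8 CPM (log2 fold change 0.31, SE 0.10). All 8 endothelial markers had lower estimates in Smo-KO livers, with a median log2 fold change of -0.26, and 1 of them, Pecam1, a junction protein, was lower at an unadjusted p under 0.05 (18.2 ± 2.51 and 12.9 ± 4.15 CPM, log2 fold change -0.50, SE 0.20), against 7.15% of all genes tested. Its call ended without Smo-KO mouse 2, Smo-KO mouse 3 or control mouse 3. Of 8 stellate cell and fibroblast markers 5 had lower estimates, and 1, Col1a1, was called lower (log2 fold change -0.36, SE 0.13). Of 7 cholangiocyte markers tested 5 had higher estimates, and 1, Tstd1, was called higher (0.34, SE 0.10). Among all genes tested 7.15% were called lower and 6.7% higher. Both genes overlapped between groups, and both calls held with each liver left out. The part of the macrophage, endothelial, stellate cell and cholangiocyte markers in the lipogenic genes was not tested.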

How the data were processed

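RNA from 8 livers was extracted with Trizol and sequenced from NEBNext Ultra RNA libraries on a NovaSeq instrument. The authors deposited 1 list of raw read counts per liver, with no normalization. The submitters' processing notes name fastp, STAR 2.7.5, featureCounts 2.0.1 and the build GRCm38, while the lists end in the special entries that htseq-count writes. Annotation and strand setting are not given in the sources used here. Reads on no feature (8.33% ± 0.743 in control livers, 9.23% ± 0.330 in Smo-KO livers) and on more than 1 gene were left out. Where nothing says how mice were housed, p-values measure the spread between these livers. Libraries within a group differed by a chi-square of 7.76 to 17.5 per degree of freedom, so none was a copy.

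Counts were tested with edgeR 4.0.16 in R 4.3.3 by its quasi-likelihood F test, with TMM scaling, the filterByExpr filter and no term but group. P-values were adjusted over 12977 genes (Benjamini-Hochberg). Standard errors are those implied by the F statistic. DESeq2 1.42.0, RLE size factors, total reads, no filter, a minimum of 10 counts in every library, a block for the replicate number and each liver left out were alternatives. On simulated counts for this comparison (3 runs, 200 genes changed by a log2 fold change of 1 or 2 in either direction, 12881 genes on average), edgeR recovered 94.2% of the changed genes and 7.07% of its calls were false. For DESeq2 these shares were 93.9% and 9.67%. Both tools exceeded the nominal false call rate. The members' log2 fold changes, the lowest at -0.46, were smaller in size than those simulated. The recovered shares therefore do not describe changes of the members' size. Single values were compared over the 70 assignments of 4 of 8 livers. Log2 CPM used a prior count of 2, and 3 reads are between 0.297 and 0.366 CPM. Counting error is the only error that depth describes, since no molecular identifiers were used as far as the sources say. Positions and lengths are from GENCODE M21, promoters from RefSeq (GRCm38.p6).

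The members, lists, markers and tests were chosen with earlier results of these data known. Genes named are Smo, the members, the 3 genes per list with the smallest p, the markers that are most abundant or at 0, and the 5 genes most like the members' mean profile. Scap, Cs, Nr1h3, Gpam, Cps1, Tat, Apoa1, Serpina1a, Asgr1, Adrb3, Trem2, Lyz2, Pecam1 and the paralogs of Scd1 were named outside this rule, after values were seen. So were Pdha1, Tkt, Dhcr7, Col1a1 and Tstd1. Some genes of the lists are not reported here by name.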

Additional observations from a re-analysis of the deposited data

Results flagged for a closer look

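In 24 groups of 4 values examined (the 10 members, Smo and reads on genes, each in control and Smo-KO livers), 3 held a liver far from the other 3, where chance flags about 1 in 20 groups. Acly was 68.3 CPM in Smo-KO mouse 3, against 84.4 to 86.5 CPM in the other Smo-KO mice, and its log2 fold change was -0.39 without that mouse. The same mouse had 8203299 reads on genes, against 9367795 to 9543675. Acacb was 14.1 CPM in Smo-KO mouse 1, against 10.3 to 10.8 CPM.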

How the results depend on the processing

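The direction of Acly, Fasn, Elovl5, Srebf1, Acaca and Me1 was the same under every alternative run. Genes past an adjusted p of 0.05, 0 by edgeR's test, numbered 167 by DESeq2's test, 61 when unfiltered and between 0 and 78 with each liver left out (78 without Smo-KO mouse 1, 5 without control mouse 1, 4 without Smo-KO mouse 3). Among the members it was 1 with DESeq2's test, Acly, and 0 otherwise. Acly, Fasn and Elovl5 were lower at an unadjusted p under 0.05 under every alternative run, and Srebf1 or Me1 made the count 4 under some. Their median log2 fold change ran from -0.35 (without Smo-KO mouse 4) to -0.13 (without Smo-KO mouse 3) with each liver left out. Some log2 fold changes crossed 0 when a liver was left out: Acacb ran from -0.024 to 0.15, Scd1 from -0.12 to 0.23, Elovl6 from -0.22 to 0.011 and Thrsp from -0.69 to 0.19. The cause was not tested.

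The replicate number as a block gave 8 genes with an adjusted p under 0.05. In that edgeR fit Srebf1 had a log2 fold change of -0.45 and an unadjusted p of 0.0160, against 0.0627 without the block. Same-numbered control and Smo-KO livers correlated in their deviations from the group means at 0.104, 0.187, 0.0611 and 0.113, not all over 0.1, and 3 of the 4 control livers correlated best with the Smo-KO liver of their own number. This is a hint from the data. The sources do not say that a number marks a shared cage or day, so the livers were not treated as pairs.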

Other observations

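Outside the lists, the 5 genes most like the members were sought among 12823 genes by Pearson's r between a gene's log2 CPM and the mean of the members' standardized log2 CPM over the 8 livers. They were Pdia6 (r = 0.976), a disulfide isomerase of the endoplasmic reticulum, Ppib (0.973), which encodes cyclophilin B, Slc35b1 (0.972), a nucleotide transporter of the endoplasmic reticulum, Yipf2 (0.972) and Edem1 (0.967), which acts in the degradation of misfolded glycoproteins. These r values describe 8 livers that include the difference between groups and Smo-KO mouse 3, whose mean standardized level of the members was -1.46 where the other livers were between -0.227 and 0.64, and they are the highest of many. Pdia6 was at 471 ± 39.5 CPM in control and 363 ± 58.1 CPM in Smo-KO livers (SD, n = 4 each), with its log2 fold change at -0.38 (SE, standard error, 0.12; edgeR's adjusted p 0.217), and its groups did not overlap. Yipf2 had a log2 fold change of -0.54 (SE 0.17) and Edem1 of -0.30 (SE 0.10), also without overlap. Ppib and Slc35b1, at -0.23 and -0.27, overlapped between groups.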
